A study of Mus musculus with 9 samples.

Results

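Sox2 binding was described around 10 mouse genes of oxidative stress defence and detoxification: Gclc, Gclm, Slc7a11, Gpx2, Txnrd1, Srxn1, Hmox1, Nqo1, Aldh3a1 and Adh7. They are 10 of 21883 protein-coding genes in the annotation used. A binding summit, the position of highest signal in a called region, was assigned to a gene when it lay inside the gene's span or within 50 kb of it. The genes were selected on the presence and position of summits in these same lists, so the counts of genes near a summit are a description and were not tested.

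The data are chromatin immunoprecipitation sequencing (ChIP-seq) with an antibody against Sox2 in lung epithelial cells of C57BL/6 mice, aged 8 weeks per the labels. One condition was wildtype, one had ectopic expression of Sox2, and one had ectopic expression of Sox2 together with deletion of Nkx2-1, with 1 Sox2 ChIP library and 1 list of summits each. The sources used here do not give how Sox2 was expressed, how Nkx2-1 was deleted or whether cells of several animals were pooled. A list of summits carries no expression value, so neither the genotypes nor the cell type could be checked against marker genes.

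Nrf2 (encoded by Nfe2l2) is a transcription factor that Keap1 marks for degradation until oxidants or electrophiles modify Keap1. Nrf2 then pairs with a small Maf protein at antioxidant response elements (ARE) and raises genes of glutathione synthesis, thioredoxin recycling and quinone and aldehyde removal. Adh7 encodes the class IV alcohol dehydrogenase, which oxidises retinol and ethanol and is known from the epithelium of the oesophagus and stomach. Sox2 marks the proximal airway, the oesophagus and the forestomach, and Nkx2-1 sets lung identity.

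The promoters of Gpx2, Adh7 and Srxn1 are printed here. The Gpx2 window holds a summit, and the Adh7 window lies between this gene's summits and holds none. The Srxn1 window holds none either and belongs to the gene whose summit was listed with ectopic Sox2 alone. Each is the RefSeq sequence of GRCm38.p6 (the same build as mm10) from 250 bases before to 50 bases after a transcription start. Capitals mark matches on either strand to the Sox core ACAAAG or ACAATG, the ARE core TGACNNNGC, the AP-1 site TGANTCA and the Nkx2 core CACTTGA. Gpx2 lies on the minus strand of chromosome 12 (76795505 to 76795804), Adh7 on the plus strand of chromosome 3 (138217523 to 138217822), and Srxn1 on the plus strand of chromosome 2 (152105274 to 152105573).
Gpx2: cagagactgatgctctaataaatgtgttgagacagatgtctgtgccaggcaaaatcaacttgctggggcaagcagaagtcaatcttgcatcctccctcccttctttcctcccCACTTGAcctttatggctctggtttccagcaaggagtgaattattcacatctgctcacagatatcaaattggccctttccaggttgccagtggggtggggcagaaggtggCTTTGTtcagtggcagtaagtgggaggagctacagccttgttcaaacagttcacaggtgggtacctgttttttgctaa
Adh7: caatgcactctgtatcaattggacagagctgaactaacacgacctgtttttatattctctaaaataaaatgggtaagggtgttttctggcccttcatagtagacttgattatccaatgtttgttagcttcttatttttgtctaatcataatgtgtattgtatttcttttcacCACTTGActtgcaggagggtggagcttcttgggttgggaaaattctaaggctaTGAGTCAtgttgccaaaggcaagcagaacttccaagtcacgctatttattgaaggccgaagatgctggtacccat
Srxn1: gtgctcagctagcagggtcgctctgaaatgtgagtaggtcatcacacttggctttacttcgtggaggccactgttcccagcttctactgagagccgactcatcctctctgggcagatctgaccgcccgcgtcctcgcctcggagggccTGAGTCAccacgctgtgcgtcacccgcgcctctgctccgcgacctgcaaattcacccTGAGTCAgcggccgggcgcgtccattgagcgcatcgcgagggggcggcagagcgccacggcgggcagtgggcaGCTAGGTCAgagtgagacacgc

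With ectopic Sox2 and Nkx2-1 deletion, 7 of the 10 genes had a summit, 9 summits in all: Gclc, Gclm, Slc7a11, Hmox1 and Aldh3a1 with 1 each, and Gpx2 and Adh7 with 2 each. In wildtype only Adh7 did, with 2 summits, and with ectopic Sox2 alone only Srxn1, with 1. Txnrd1 and Nqo1 had none in any list. The same rule found a summit for 13.1% of protein-coding genes in the Nkx2-1 deletion list, for 2.85% in the wildtype list and for 1.53% in the ectopic Sox2 list. Since these lists were in view when the genes were chosen, nothing is read from the distance between the genes' counts and those shares. By pattern, 6 genes were listed with Nkx2-1 deletion alone (11.0% of all genes), 1 in wildtype and with deletion but not with ectopic Sox2 (1.27%), 1 with ectopic Sox2 alone (0.448%) and 2 in no list (85.3%).

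**Figure D1:**
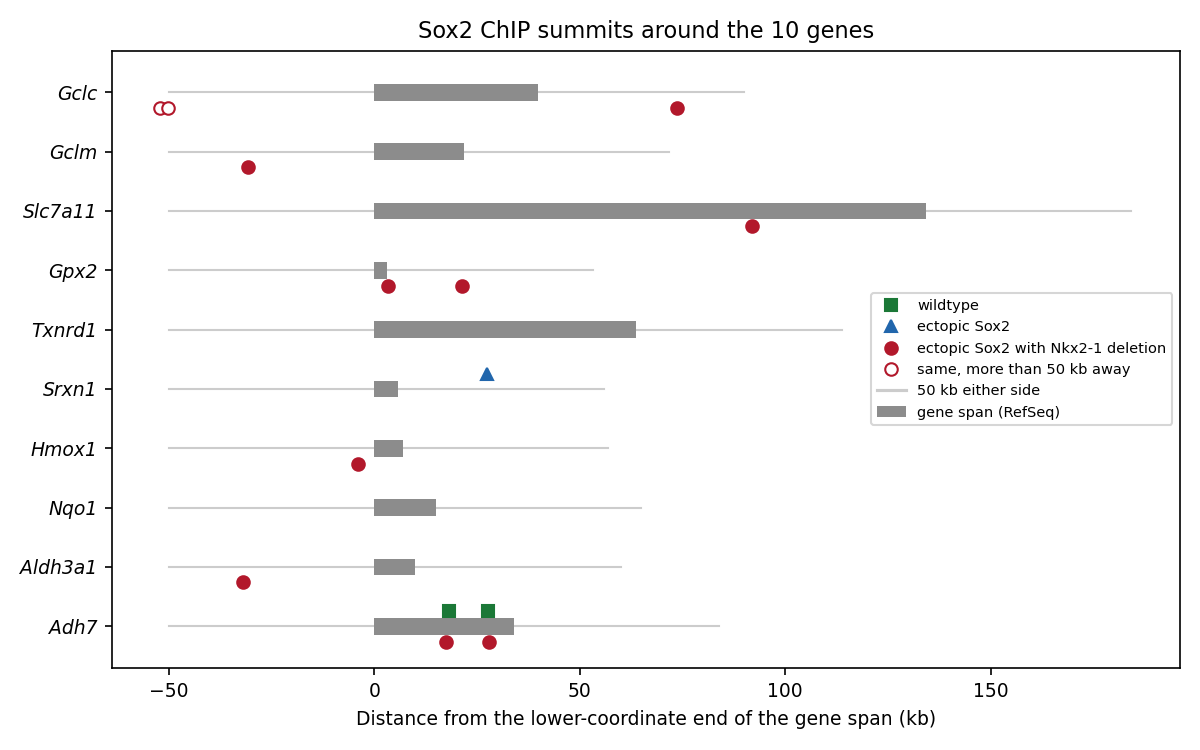
Position of every summit within 100 kb of the 10 genes, in kb from the lower-coordinate end of each gene's span (grey bar), with 50 kb on either side drawn as a line. Squares stand for wildtype, triangles for ectopic Sox2 and circles for ectopic Sox2 with Nkx2-1 deletion. Adh7 is the only gene with marks from 2 libraries, and the open circles beside Gclc lie 50.3 and 52.0 kb away.

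The lists differed in depth and length. The wildtype list held 552 summits, the ectopic Sox2 list 229 and the list for Nkx2-1 deletion 2589. Their mean ChIP coverage, recovered from the listed values, was 0.963, 0.764 and 1.45 fragments per position. Fragments below are whole ChIP fragments at a summit, recovered in the same way, with exact Poisson 95% intervals that cover counting error only. Fold and −log10 q are the values of the authors' peak caller and rank summits within 1 list. With 1 library per condition, a difference between conditions could not be set against replicate spread.

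Glutathione synthesis was represented by its rate-limiting enzyme, made of the catalytic subunit Gclc and the modifier subunit Gclm, and by Slc7a11, the cystine importer that feeds it. All 3 genes had 1 summit with Nkx2-1 deletion and none in the other lists. Gclm (chromosome 3, 122245487 to 122267215) had the most fragments of the 9 summits. Its region at 122214611 to 122214889, 30.7 kb from the gene on the upstream side, held 68 fragments (interval 52.8 to 86.2) with a fold of 4.96. Gclm was the nearest protein-coding gene there, and the photoreceptor transporter gene Abca4 was within 50 kb of the same summit. The control background at that summit was 11.8 fragments, against a median of 4.72 over the list.

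Gclc (chromosome 9, 77754535 to 77794489) had its summit 33.8 kb away, in a region at 77828132 to 77828363 with 44 fragments (32.0 to 59.1) over a control background of 3.31. The fold was 8.18 and the −log10 q 10.2, higher than 82.1% of the list. No other protein-coding gene lay within 50 kb of it. The choice of 50 kb mattered for Gclc, since 2 more summits lay 50.3 and 52.0 kb away on the other side of the gene, each with 36 fragments and a fold of 5.41. Klhl31 was the gene nearest to both.

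Slc7a11 (chromosome 3, 50364936 to 50499087) held its summit inside the gene span, in a region at 50456724 to 50456935. The start listed for Slc7a11 in the promoter table lies 13.2 kb downstream of that summit, so the summit is within the span and upstream of that start. It had 52 fragments (38.8 to 68.2), a fold of 3.84 and a control background of 11.8 fragments. Exons and introns could not be told apart with the annotation used here.

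A second set of genes removes peroxides or renews the proteins that do: Gpx2, the glutathione peroxidase of gut and other epithelia, Txnrd1, the cytosolic thioredoxin reductase, and Srxn1, which restores oxidised peroxiredoxins. Gpx2 (chromosome 12, 76792335 to 76795554) was the one gene, of the 7 with a promoter window, that had a summit inside it. That summit lay 21 bases upstream of the transcription start with Nkx2-1 deletion, in a region at 76795387 to 76795705 that covers the start. It had 44 fragments (32.0 to 59.1) over a control background of 7.09, a fold of 4.91 and a −log10 q of 5.21, higher than 42.4% of its list. Of the 17491 genes in the promoter table, 0.2% had a summit inside a 300 bp window in that library, 0.0915% in wildtype and 0.166% with ectopic Sox2.

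The Gpx2 window printed above contains 1 Sox core, read as CTTTGT on the gene's strand and as ACAAAG on the other, starting 28 bases before the transcription start. Its last base was 2 bases from the summit, which was the closest Sox core to a summit among the 36 promoter windows with a summit in that library. The Sox core ACAAAG was in 16.8% of all 21262 windows and in 41.7% (exact binomial interval 25.5 to 59.2) of those 36, and ACAATG in 11.0% and 11.1%. Those windows belong to 35 genes and include 3 near-identical copies, Sprr2a1, Sprr2a2 and Sprr2a3, all with a Sox core. The Gpx2 window also has an Nkx2 core, CACTTGA, starting 138 bases before the start, a match found in 2.95% of all windows. No match to the ARE core was in that window. These matches are letters in a sequence and do not show a bound site.

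A further Gpx2 summit lay 18.2 kb upstream of the gene, at 76813675 to 76813901, and inside the neighbouring gene Rab15, a small GTPase of endosome recycling. It had 46 fragments (33.7 to 61.4) and a fold of 5.12. Both Gpx2 summits thus rested on about the same number of fragments, with intervals that overlap nearly in full. The genes Churc1 and Fntb were also within 50 kb of both. At least 2 summits within 50 kb were found for 2.76% of protein-coding genes in that list.

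Srxn1 (chromosome 2, 152105524 to 152111376) had the only summit listed with ectopic Sox2 alone, 21.5 kb downstream of the gene at 152132807 to 152133027. It had 14 fragments (7.65 to 23.5), a fold of 6.68 and a −log10 q of 3.73, higher than 21.4% of that list. Tcf15 was nearer, at 10.1 kb, and Scrt2 was within 50 kb too. In the other lists Srxn1 was far from any summit, 2181 kb in wildtype and 564.9 kb with Nkx2-1 deletion. Its promoter window holds 1 ARE core and 2 AP-1 sites; the ARE core is in 13.0% and the AP-1 site in 6.99% of all windows. The AP-1 sites start 102 and 45 bases before the transcription start, and the ARE core 28 bases after it. An AP-1 site can form part of an ARE. The matches to the patterns searched do not overlap here, but the ARE core used requires a C after TGA. The AP-1 site at 45 bases is followed by gc and reads TGAGTCAGC, which differs from that core only at this base. Whether it is part of an ARE was not tested.

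Txnrd1 (chromosome 10, 82833951 to 82897724) had its nearest summit 280.6 kb away in wildtype, 633 kb with Nkx2-1 deletion and 10420 kb with ectopic Sox2. Txnrd1 had 3 of the 9 promoter windows found for these genes, with a Sox core in 2 of them. In 1 of these, the Sox core lies within the match to the ARE core, TGACAAAGC on the strand opposite to the gene. A Sox core near a start thus occurred in a gene with no listed summit.

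Hmox1 encodes the inducible haem oxygenase, Nqo1 a quinone reductase often used as a readout of Nrf2, and Aldh3a1 an aldehyde dehydrogenase abundant in cornea and stomach. Hmox1 (chromosome 8, 75093618 to 75100593) had a summit 3.88 kb from the gene with Nkx2-1 deletion, at 75089629 to 75089834. It had the fewest fragments of the 9, 21 (13.0 to 32.1), a fold of 5.49 and a −log10 q of 3.06. The endosomal adaptor gene Tom1 and the replication gene Mcm5 were within 50 kb of it. Hmox1 was the nearest gene.

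Aldh3a1 (chromosome 11, 61208510 to 61218418) had the highest-ranked summit of the 10 genes, with a fold of 9.43 and a −log10 q of 15.4, higher than 94.9% of the list. Its region, at 61176501 to 61176787 and 31.9 kb from the gene, held 60 fragments (45.8 to 77.2) over a control background of 4.25. This summit was much closer to Usp22, a histone deubiquitinase gene, at 1.60 kb. Tnfrsf13b and the related aldehyde dehydrogenase gene Aldh3a2 were within 50 kb of it as well. Nqo1 (chromosome 8, 107388225 to 107403205) had its nearest summit 268.7 kb away with Nkx2-1 deletion, 770.8 kb in wildtype and 15040 kb with ectopic Sox2.

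Adh7 (chromosome 3, 138198064 to 138232042) had summits in wildtype and with Nkx2-1 deletion, at 2 places inside its span in each. Genes with a summit within 50 kb in both lists made up 1.75% of all protein-coding genes. Having at least 2 summits inside the span was found for 0.128% of genes in wildtype and 0.896% with Nkx2-1 deletion. The uncharacterised gene 4930579F01Rik was the other protein-coding gene within 50 kb of these summits. The span of Adh7 begins 19.7 kb before the start listed in the promoter table, so that start divides the places into 1 upstream and 1 downstream.

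The downstream place was shared. In wildtype the region at 138225717 to 138225992 had its summit 8.05 kb downstream of the listed start, with 13 fragments (6.92 to 22.2), a fold of 4.43 and a −log10 q of 1.74. That −log10 q was higher than only 1.45% of the wildtype list. With Nkx2-1 deletion the region at 138225624 to 138226184 covered all 276 bp of the wildtype region, with 36 fragments (25.2 to 49.8), a fold of 8.12 and a −log10 q of 9.16. The summits were 58 bp apart. Divided by the depth ratio of 1.51, the count with Nkx2-1 deletion was 1.84 times that in wildtype, with an exact conditional binomial interval of 0.952 to 3.78 that includes 1. A difference between the libraries at this region was therefore not detectable at this depth.

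The upstream places were near each other and not the same. The wildtype region at 138216187 to 138216420 had its summit 1.48 kb upstream of the listed start, with 18 fragments (10.7 to 28.5) and a fold of 5.97. The region with Nkx2-1 deletion, at 138215556 to 138215778, had its summit 2.21 kb upstream, with 37 fragments (26.1 to 51.0) and a fold of 3.33. The summits were 725 bp apart and 408 bp separated the regions. The latter summit had the lowest fold and the lowest −log10 q (1.88, higher than 3.01% of the list) of the 9, over a control background of 9.45 fragments. It was at base 10 of its region, where the median of the list is base 131, and 2 summits of that list lay in the first 10 bases of their region.

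The Adh7 promoter window lies between these places and held no summit. It contains an AP-1 site that starts 25 bases before the start and an Nkx2 core that starts 78 bases before it, and no Sox core. Adh7 belongs to a cluster of alcohol dehydrogenase genes. None of the 5 others, Adh1, Adh4, Adh5, Adh6a and Adh6b, had a summit within 50 kb in any list. The same was true of 85.3% of protein-coding genes. Adh1, the next gene of the cluster, was just outside 50 kb, with its nearest summit 51.8 kb away in wildtype and 51.7 kb away with Nkx2-1 deletion. These are the downstream Adh7 summits.

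**Figure D2:**
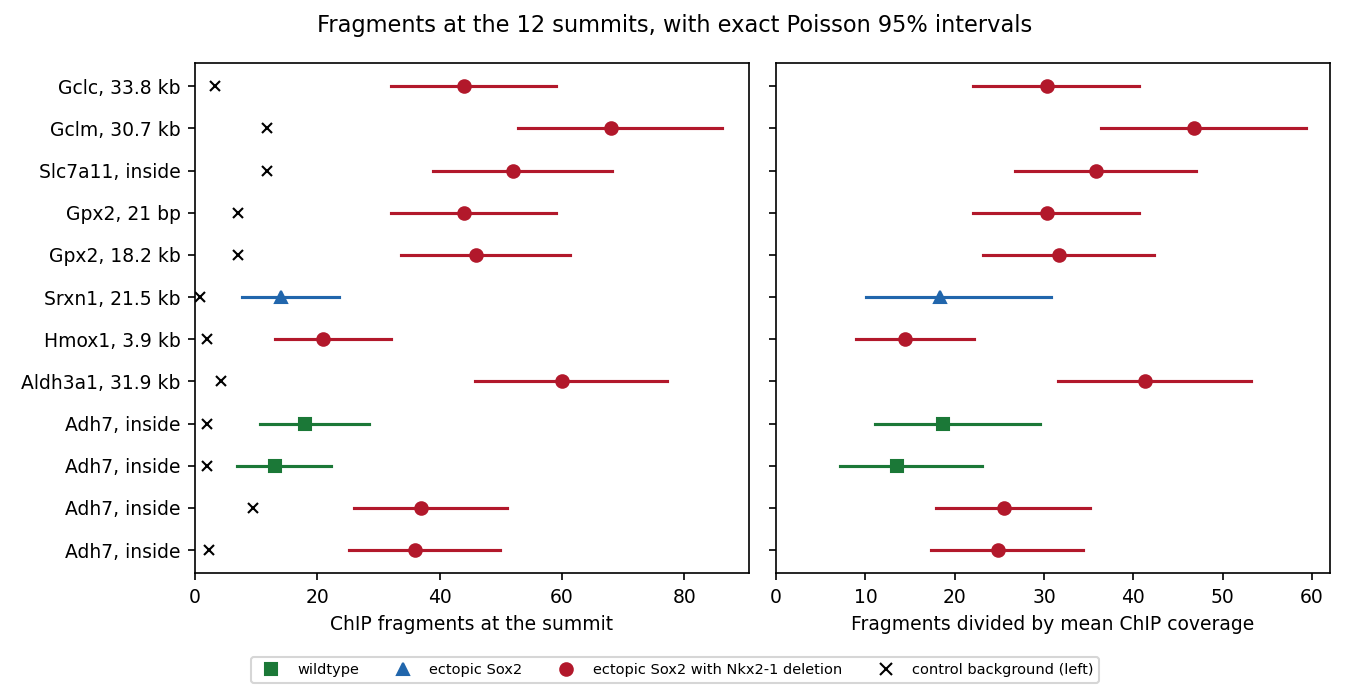
ChIP fragments at the 12 summits (left, with the control background as crosses) and the same counts divided by the library's mean ChIP coverage (right). Lines are exact Poisson 95% intervals, and labels give the gene and the distance of the summit from it. After division by depth, values ran from 13.5 at Adh7 in wildtype to 46.8 at Gclm, and the intervals of the 4 Adh7 summits overlapped.

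Among the 9 summits with Nkx2-1 deletion, fragments ran from 21 to 68 with a median of 44, where the whole list had a median of 38. Folds ran from 3.33 to 9.43 with a median of 5.12, against 5.73 over the list. Their median −log10 q equalled that of the list, 5.97. Their strength was thus close to the middle of their list, with the Aldh3a1 summit the highest-ranked. The 3 summits of the other lists were below their list's median by −log10 q, with 1.74 and 4.82 in wildtype (median 5.64) and 3.73 with ectopic Sox2 (median 6.04). By fold, the upstream Adh7 summit in wildtype (5.97, median 5.80) and the Srxn1 summit (6.68, median 6.56) were just above the median, and the downstream Adh7 summit (4.43) was below it. Of the 12 summits, the 2 at the downstream place in Adh7 were the only ones that overlapped a region of another list. The share of each whole list that overlaps another list was not counted. This count is therefore not read as a trait of these genes.

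Because the lists differ in depth, each summit was scaled to the depth of the lists that lack it, with the control background of its own library rescaled to that list's genome-wide level. Its Poisson −log10 p there was set beside the lowest value listed. Of the 9 summits with Nkx2-1 deletion, 8 had no overlapping wildtype region. The wildtype list is much shorter, with 552 summits against 2589, and the share of the whole deletion list without such an overlap was not counted. Nothing is therefore read from 8 of 9 about these genes. Scaled by depth alone, all 8 would have exceeded the lowest wildtype value of 5.27, 6 of them also at the lower bound of their fragments. In the ectopic Sox2 list, whose lowest value was 5.47, 8 of 9 would have exceeded it, and 4 also at the lower bound: Aldh3a1 at 17.1, Gclc at 11.9, the downstream Adh7 summit at 11.4 and Gclm at 10.3. The promoter summit of Gpx2 scaled to 7.43 with a lower bound of 4.40, and Hmox1 to 6.43 with a lower bound of 3.30. The upstream Adh7 summit scaled to 4.55, under the lowest listed value, with bounds of 2.27 and 8.08 on either side of it.

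**Figure D3:**
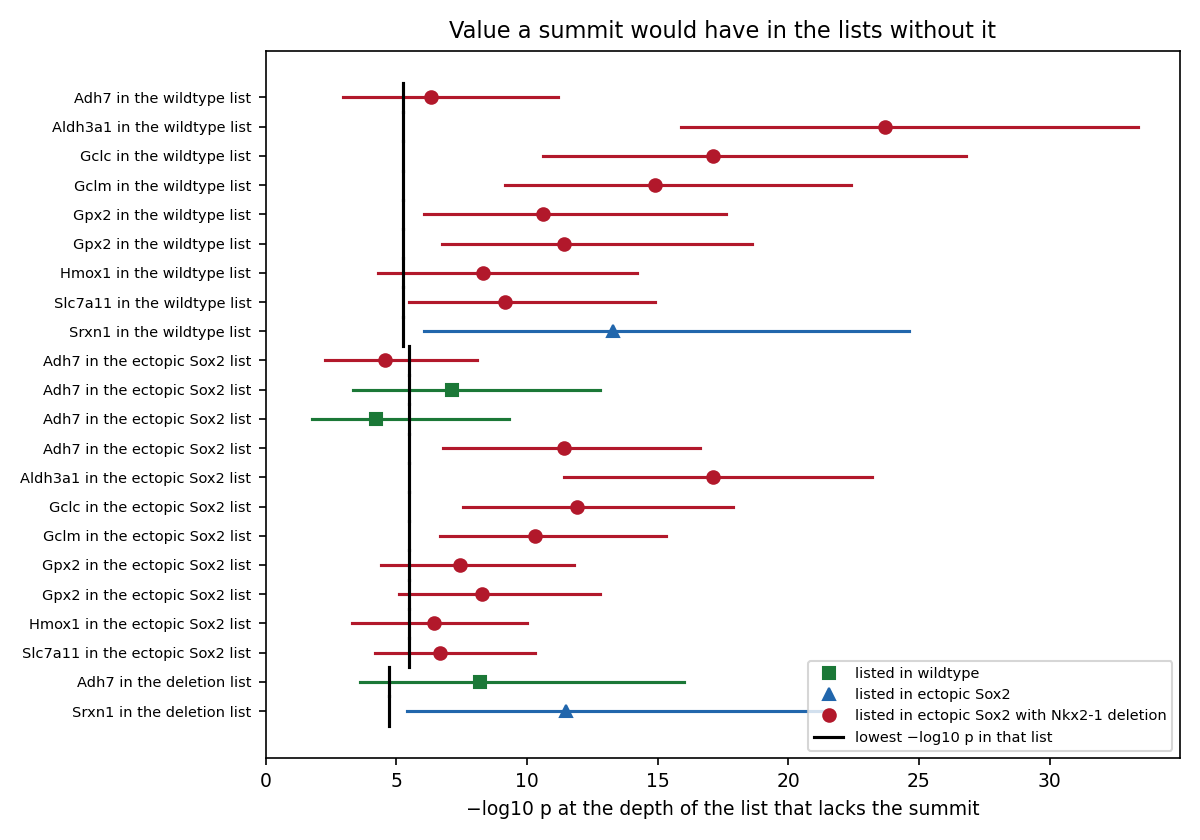
Poisson −log10 p that each summit would have at the depth of a list that lacks it, with the control background of its own library rescaled to that list's genome-wide level. Lines span the bounds of its fragments. Black ticks mark the lowest −log10 p in that list. The summits of Aldh3a1, Gclc and Gclm lie right of the tick with their whole interval in both other lists, and 2 of the 4 Adh7 summits missing from the ectopic Sox2 list lie left of it.

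In the other direction, the Srxn1 summit would have reached 13.3 in wildtype and 11.5 with Nkx2-1 deletion, above the lowest values there also at the lower bound. The downstream wildtype summit of Adh7 would have reached 4.20 (bounds 1.78 and 9.30) at the depth of the ectopic Sox2 library, under its lowest listed value. The upstream wildtype summit reached 7.13, with a lower bound of 3.33, and the downstream summit with Nkx2-1 deletion passed at its lower bound too. The local control background in the list that lacks a summit is not known, and listed summits favour high counts. The scaling also takes enrichment per unit of depth as equal between libraries. At 62 summits in regions found in all 3 lists, the median background-subtracted count with Nkx2-1 deletion was 1.92 times that in wildtype, where the depth ratio was 1.51. Scaling by 1.92 would give lower expected values in wildtype and was not done.

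A wider list of 89 other genes of the Nrf2 pathway and of related detoxification families was read in the same way. It too was chosen with earlier results of these data known, so its counts are a description and were not tested. Some of its genes share a summit, so the genes counted are not separate sites. The Nkx2-1 deletion list had a summit near 26 of them (29.2%), beside 13.1% of protein-coding genes. The wildtype list had one near 3 (3.37%) and the ectopic Sox2 list near 1 (1.12%), Abcc4. Within 10 kb the counts with Nkx2-1 deletion were 17 of 89 and 6.46% of all genes. Median spans were 18.4 kb for the 10 genes, 17.7 kb for the wider list and 17.2 kb for all genes. Chromosome 19 holds 6 of the 26 and none of the 10 genes; on that chromosome 23.0% of all genes were near a summit of that list, and the median control background at its summits was 1.5 times that elsewhere. Without chromosome 19 the count was 20 of 78, beside 12.8% of genes.

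**Figure D4:**
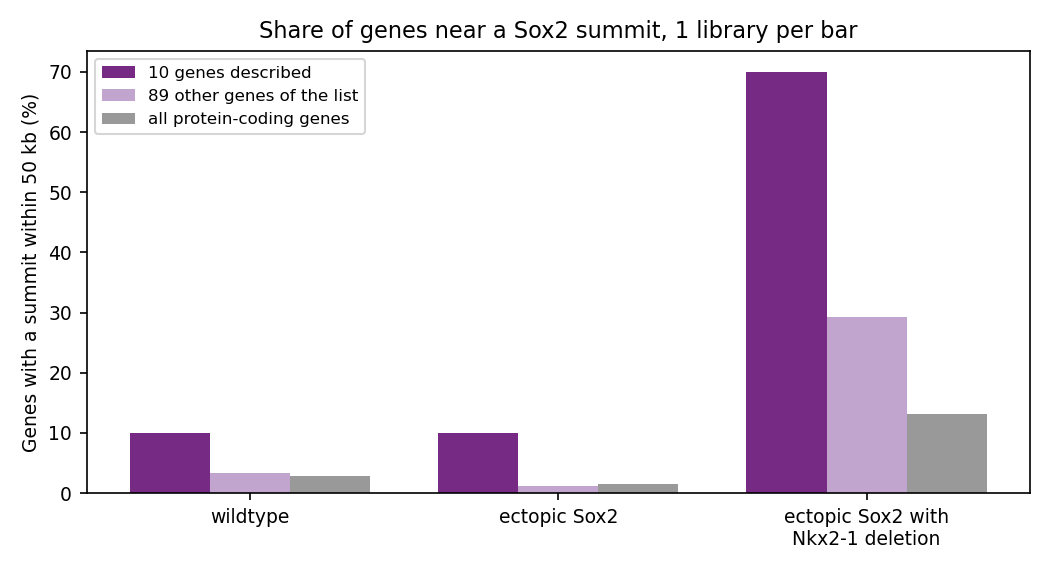
Percent of genes with a Sox2 summit within 50 kb in each library, for the 10 genes, the 89 other genes of the wider list and all 21883 protein-coding genes. The bars for the 10 genes describe genes chosen with these lists in view. The wider list was also chosen with earlier results of these data known. The wider list stands at 3.37%, 1.12% and 29.2%.

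Among the aldehyde dehydrogenases, 5 of 9 genes (55.6%) had a summit with Nkx2-1 deletion, beside 13.1% of protein-coding genes. Of these, Aldh1a1 and Aldh1a7 lie on chromosome 19. Counts by group, here and below, cover few genes of a list chosen with earlier results known, and none was tested. Aldh1a1 and Aldh1a3, which make retinoic acid, had 51 and 65 fragments at their strongest summits, and Aldh1a7, a close copy of Aldh1a1, had 47. Aldh3a2 shared the summit near Aldh3a1, and Aldh1a2, named after its value was seen, had 19. Aldh1a7 was also listed in wildtype, with 20 fragments in an overlapping region, a count not divided by depth.

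Genes of glutathione synthesis and use other than the 10 had a summit in 6 of 16 cases (37.5%, beside 13.1% of protein-coding genes). Slc3a2, the heavy chain that partners Slc7a11 in the cystine importer, had 61 fragments (46.7 to 78.4) and a fold of 11.2 at 4.26 kb from the gene, on chromosome 19. Both chains of the importer were therefore near a summit with Nkx2-1 deletion. The glutathione transferase genes Gsta1 and Gsta4 shared a summit of 35 fragments inside Gsta4, and Gpx3, the plasma glutathione peroxidase, had one of 30 fragments 48.3 kb away. Mgst1, a membrane-bound glutathione transferase named after its values were seen, had its summit of 32 fragments inside a promoter window, as Gpx2 did, and that window held no Sox core.

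Transporters and other targets had a summit in 4 of 8 cases (50.0%, beside 13.1% of protein-coding genes), led by Abcc4, an exporter of conjugates and cyclic nucleotides. Abcc4 was the one gene of the wider list found in all 3 libraries, with 127 fragments at its strongest summit with Nkx2-1 deletion, 71 in wildtype and 40 with ectopic Sox2. These counts, and those of Sesn1 below, are not divided by depth, which was 1.45, 0.963 and 0.764 fragments per position in that order. Abcc2, another exporter of conjugates, had 37 fragments inside the gene, on chromosome 19. Genes of thioredoxin and peroxide removal had a summit in 4 of 14 cases (28.6%). Among them Sesn1, a stress-induced sestrin, had 46 fragments and an overlapping wildtype region of 30. Xenobiotic metabolism had 3 of 12 (25.0%), led by Cyp1b1 with 83 fragments at 31.2 kb, and NADPH supply 2 of 6 (33.3%). None of the 6 other genes of haem and iron handling had one.

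The pathway's regulators had a summit in 2 of 13 cases (15.4%), close to the 13.1% of protein-coding genes. Btrc, a subunit of a ubiquitin ligase that acts on Nrf2 among many proteins, had 82 fragments (65.2 to 101.8) and a fold of 14.9 inside the gene, on chromosome 19. Keap1, named after its value was seen, had 31 fragments (21.1 to 44.0) at 18.5 kb from the gene. Nfe2l2 itself (chromosome 2, 75675513 to 75704663) had no summit within 50 kb in any list. Its nearest was 62.2 kb away with Nkx2-1 deletion, 3694 kb in wildtype and 6354 kb with ectopic Sox2.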

How the data were processed

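Sox2 ChIP libraries of 3 conditions, 1 each, were used from a series of 9; the input and IgG libraries were not used here. Per the submitters' processing notes, Bowtie2 2.2.9, SAMtools 1.4, MACS2 2.1.1, HOMER 4.8.3 and mm10 were used; the sources used here do not say which control, threshold or duplicate handling stood behind each list. The authors deposited 1 narrowPeak list per library, with a score, a fold enrichment ratio, −log10 p and −log10 q per summit. Positions are printed counting from 1.

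ChIP fragments and control background were solved from the deposited fold, (pileup + 1) / (background + 1), and the Poisson p, taking whole fragments times 1 scale per list (wildtype 0.741, ectopic Sox2 0.638, Nkx2-1 deletion 0.423) within a tolerance of 0.02. This gave whole fragments at 100% of summits and 1 solution at each of the 12 described; the solver was tested on simulated data. Depth is the lowest background divided by the scale, not a read total.

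Genes and promoter sequences are from RefSeq tables of GRCm38.p6. Of the 10 genes, 7 matched a promoter window; Aldh3a1, Gclc and Hmox1 did not. Regions overlapped at a minimum of 1 bp. The 10 genes and the list of 89 were chosen with earlier results of these data known. Named beside the 10 were genes within 50 kb of their summits (at most 5), every gene of the 89 with a summit in wildtype or ectopic Sox2, and up to 12 per library by −log10 q. Alternatives were other distances, the nearest gene, a −log10 q of at least 5, whole regions, lists without regions found in all 3, and other scalings of the fragment ratio. Work was done in Python 3.11.15 with scipy 1.17.1 and pandas 2.3.3.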

Additional observations from a re-analysis of the deposited data

How the results depend on the processing

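Of 53 alternatives, 38 left a count within 1.5 times its value or the Adh7 ratio within its interval. Within 10 kb, with Nkx2-1 deletion 4 of the 10 genes, 5 summits and 17 of the wider list were counted, beside 6.46% of all genes. With ectopic Sox2, 0 of the 10 genes and 0 summits were counted within 10 kb, beside 0.736% of all genes. With a −log10 q of at least 5, wildtype had 0 of the 10 genes, 0 summits and 1 of the wider list, beside 1.87% of all genes. At the same cutoff ectopic Sox2 had 0 genes, 0 summits and 0 of the wider list, beside 1.18%, and Nkx2-1 deletion had 14 of the wider list, beside 8.83%. Within 100 kb, 8 of the wider list were near a wildtype summit, beside 4.66% of all genes. By nearest gene, 0 of the 10 were listed with ectopic Sox2, and without regions found in all 3 lists 0 of the wider list were. The Adh7 ratio was 1.44 with depth taken from regions found in all 3 lists and 2.01 with the control background subtracted. No alternative gave a count of the 10 genes with Nkx2-1 deletion outside 4 to 7. Leaving out chromosome 19 was chosen after seeing the data. No paired analysis was possible because each condition has 1 library; for the same reason no library could be left out. Whether summits of the size of the upstream Adh7 summit would be listed at the depth of the ectopic Sox2 library was not settled.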

Other observations

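Of the 36 promoter windows with a summit with Nkx2-1 deletion, 17 held a Sox core, ACAAAG or ACAATG (47.2%, against 25.7% of all windows). In 10 of those 17 the nearest Sox core was 20 to 24 bp from the summit, with 3 of the 10 in the Sprr2a copies, and the median was 23 bp. Gpx2, at 2 bp, was the exception on the near side. This spacing was seen after the data were examined and was not tested.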
